A study of Mus musculus with 12 samples.

Results

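C10 cells after 48 h of beta estradiol were compared with C10 cells given the ethanol vehicle, on 4 of the 12 arrays of the series. The members are the 2 C10 arrays labelled with 48 h of beta estradiol and the 2 C10 arrays labelled with ethanol, chosen by those labels and not by any measured value. C10 carries an inducible form of C/EBPα, and both groups carry it, so that beta estradiol is the agent that differs between them. The other 8 arrays are duplicates of C10 at 3, 12 and 24 h of beta estradiol and of HAFTL cells given beta estradiol. The labels give no dose of either agent and no length of the ethanol treatment, so time in culture and beta estradiol cannot be told apart here. They also do not say that the duplicates came from separate cultures, and each p-value then measures only the spread between duplicate arrays, which may be technical.

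C/EBPα is a basic leucine zipper transcription factor of granulocyte and monocyte development. HAFTL is a mouse fetal liver line transformed with Ha-ras that resembles a B cell precursor, C10 is known as a clone of it, and a single clone stands here for the response. A macrophage differs from a B cell precursor in far more than its surface markers: it takes in particles and digests them in acidified lysosomes, stores and exports the lipid it has taken up, makes reactive oxygen and eicosanoids, and carries pattern recognition, Fc and chemoattractant receptors. A cycling precursor spends much of its metabolism on nucleotides, serine, ribosomes and mitochondria.

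Each array gave 1 signal per probe set, scaled between arrays by quantile normalisation with a floor of 16, and each gene was read from its brightest probe set. A signal of 74.6 is the median over all probe sets and arrays, and a probe set at or under it counted as dim. Of 18193 genes on the array, 11696 exceeded that level in at least 2 of the 12 arrays and were tested with limma, and the Benjamini-Hochberg adjusted p had to be below 0.05. At 48 h 2831 genes, 24.2% of those tested, were higher than in vehicle C10 and 4469, 38.2%, were lower. In all, 62.4% were called, so the share of calls in a list is to be read beside this one and beside the shares higher and lower. The arrays of the groups did not overlap for 9395 genes, 80.3%. The change was at least 2-fold for 1497 of the higher genes (12.8%) and for 2332 of the lower genes (19.9%). The median over all genes tested was a log2 change of -0.19, and the medians of the lists below are to be read against it. The lists were chosen with earlier results of these data known, so their shares and medians are descriptions and not tests. Counts are of the members tested. A member dim in a group was tested only through brighter arrays elsewhere, which favours members that changed. Some genes stand in several lists, Il1b, Cd14, C3ar1 and Hp among them. Where both arrays of a group were dim the change is given as a bound, at least N-fold, which is the brighter group's mean over the dim level. Log2 changes are given with the standard error of the fit (SE, n = 2 arrays against 2). The spread behind each SE and p-value was estimated from the duplicates of all 12 arrays. With only the 4 arrays compared, 2602 genes were higher and 4022 lower. For every gene named below as having risen or fallen, both arrays at 48 h lay on the same side of both vehicle arrays. Where the signals of a gene follow each other, the 2 vehicle arrays come first and the 2 arrays at 48 h after them. In RNA from whole cultures, fewer cells that express a gene and less RNA per cell cannot be told apart.

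**Figure D1:**
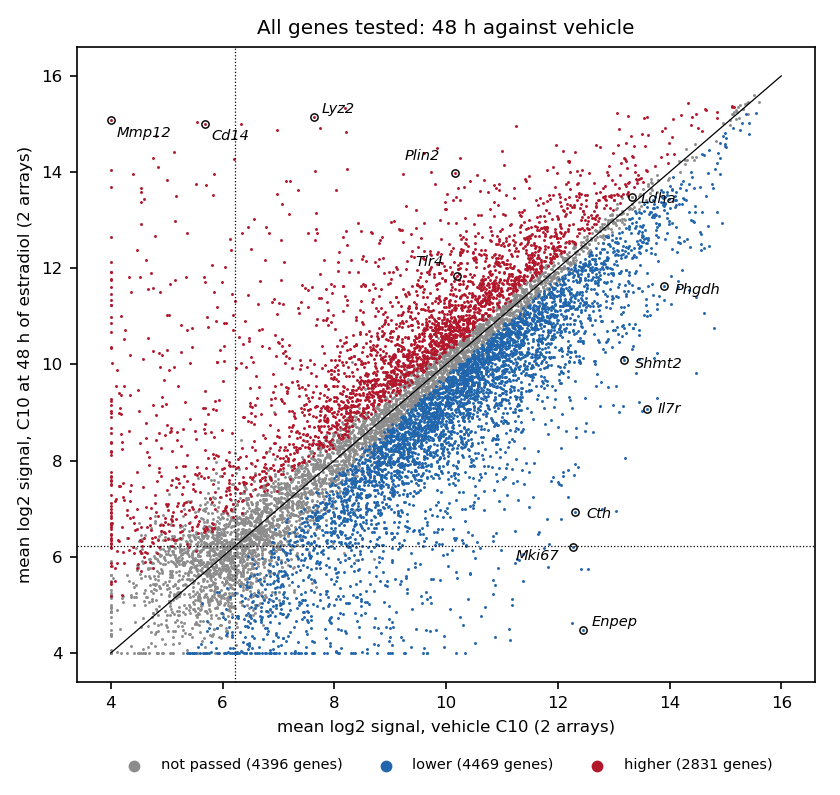
Mean log2 signal of each of the 11696 genes tested in vehicle C10 (horizontal axis) and in C10 at 48 h (vertical axis). Red points are the 2831 genes called higher, blue points the 4469 called lower and grey points those that did not pass; the solid line is equality and the dotted lines mark the dim level. Ldha lies close to the line of equality, Mmp12 and Cd14 lie in the upper left, dim in vehicle, and Cth and Il7r lie far below the line.

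The 2 arrays of vehicle C10 correlated at r = 0.9799 and the 2 at 48 h at r = 0.9757 over genes, which are not independent replicates. The mean log2 signal of the 27 poly-A spike-in probe sets was 7.75 and 7.43 in vehicle C10 but 7.53 and 6.52 at 48 h, where replicate 2 stood low. Scaling on these spike-ins moved the median of all genes by 0.567, to 0.379, and turned the split of calls to 2563 higher and 1133 lower, 69.3% higher in place of 38.8%. With the same scaling and without that array the split was 1761 higher and 2741 lower, 39.1% higher. Of the 72 gene lists, 12 changed the sign of their median under spike-in scaling, and those described here are named where they come up. Among the single genes followed under this scaling, 14 lost their call, 1 gained one and 1, Irf8, changed direction. The 14 are not marked below, so small falls such as that of Sigirr are to be read beside the shift of 0.567. Changes since 24 h were not recomputed under this scaling or without an array. The ratio of 5′ to 3′ beta-actin signal was 0.582 and 0.638 in vehicle C10 and 0.802 and 0.792 at 48 h; its part in the results was not tested.

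Stretches of promoter are shown first, for genes of lists that moved mostly one way and for Ptgs2. The eicosanoid list that holds Ptgs2 moved both ways, with 8 of 14 genes higher and 4 lower. The genes shown were chosen after their values and motif matches were seen. The windows are RefSeq promoters of the GRCm38.p6 build, from 250 bases before to 50 bases after the first start site listed for a gene, and 73 of the 100 genes with the largest rises and 77 of the 100 with the largest falls matched one. The interferon-stimulated response element was searched on both strands as 2 copies of GAAA with any 2 bases between them. It stood in 18 of the 73 promoters of rising genes (24.7%), in 5 of the 77 of falling genes (6.49%), in 284 of 9500 promoters of genes tested (2.99%) and in 943 of all 27025 (3.49%). The 4 shown here belong to interferon-inducible antiviral genes, with the match in capitals on either strand:
Ifit1, chr19:34640759-34640858, + strand: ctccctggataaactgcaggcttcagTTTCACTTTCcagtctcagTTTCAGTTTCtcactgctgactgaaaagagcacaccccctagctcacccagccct
Ifit3, chr19:34583362-34583461, + strand: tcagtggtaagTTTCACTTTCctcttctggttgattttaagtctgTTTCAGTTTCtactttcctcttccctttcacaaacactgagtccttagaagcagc
Rsad2, chr12:26456518-26456617, - strand: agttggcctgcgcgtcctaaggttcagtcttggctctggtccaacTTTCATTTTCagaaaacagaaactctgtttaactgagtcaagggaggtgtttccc
Oas3, chr5:120777680-120777779, - strand: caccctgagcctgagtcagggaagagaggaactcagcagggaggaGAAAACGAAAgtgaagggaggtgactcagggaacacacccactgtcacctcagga
Ifit1 and Ifit3 each hold 2 matches in the 100 bases shown, and Rsad2 and Oas3 hold 1. Ifit1 read 63.3 and 80.2 in vehicle C10, 1 array dim, and 5444 and 5278 at 48 h (log2 change 6.23 ± 0.20, adjusted p = 1.84e-07). Oas3 was dim at 66.8 and 53.5 and read 2257 and 2435 at 48 h, at least 31.4-fold higher (adjusted p = 0.000119).

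The cell cycle homology region, a short element of promoters of late cell cycle genes, was searched as TTTGAA on both strands. It stood in 23 of 77 promoters of falling genes (29.9%), in 16 of 73 of rising genes (21.9%), in 12.0% of the promoters of genes tested and in 18.1% of all. The 4 shown are of genes of mitosis, with the start site to the right of each line:
Cdc20, chr4:118437344-118437443, - strand: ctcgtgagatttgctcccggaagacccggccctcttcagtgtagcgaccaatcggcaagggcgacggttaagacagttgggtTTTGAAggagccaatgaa
Cdk1, chr10:69352913-69353012, - strand: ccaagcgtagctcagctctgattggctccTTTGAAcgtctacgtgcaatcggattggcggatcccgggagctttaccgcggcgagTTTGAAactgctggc
Top2a, chr11:99024190-99024289, - strand: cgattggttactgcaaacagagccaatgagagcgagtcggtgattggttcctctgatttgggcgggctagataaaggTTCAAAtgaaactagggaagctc
Ube2c, chr2:164769829-164769928, + strand: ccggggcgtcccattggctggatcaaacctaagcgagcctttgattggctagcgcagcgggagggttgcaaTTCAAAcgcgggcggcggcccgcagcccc
Cdk1 holds 2 matches in the bases shown and the others 1. Cdc20 fell from 3882 and 3804 to 207 and 199 (log2 change -4.24 ± 0.11, adjusted p = 6.77e-08) and Cdk1 from 1972 and 2001 to 171 and 120.3 (log2 change -3.79 ± 0.15, adjusted p = 5.05e-07). Ube2c fell from 2243 and 2243 to 32.3 and 16, dim, at least 30.0-fold (adjusted p = 5.48e-07).

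A C/EBP motif, searched as TTGCNNAA, stood in 9 of 73 promoters of rising genes (12.3%), in 9 of 77 of falling genes (11.7%), in 8.07% of the genes tested and in 10.8% of all promoters. A motif of PU.1 and other Ets factors, searched as GAGGAAG, stood in 15 of 73 (20.5%), 12 of 77 (15.6%), 13.7% and 13.5%. The Ets motif and the interferon-stimulated response element can overlap each other, and a match in either is a description of letters in a window. The examples are the promoters of the prostaglandin synthase Ptgs2, the lectin receptor Clec4e and the elastase Mmp12 with the C/EBP match, and of the Fc receptor Fcgr1 with the Ets match:
Ptgs2, chr1:150099916-150100015, + strand: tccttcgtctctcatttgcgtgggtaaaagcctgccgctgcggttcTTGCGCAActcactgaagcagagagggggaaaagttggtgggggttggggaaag
Clec4e, chr6:123289884-123289983, - strand: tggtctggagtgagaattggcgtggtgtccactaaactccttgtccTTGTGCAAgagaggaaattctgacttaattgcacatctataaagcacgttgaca
Mmp12, chr9:7344297-7344396, + strand: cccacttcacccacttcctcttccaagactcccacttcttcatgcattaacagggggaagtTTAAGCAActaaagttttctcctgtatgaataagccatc
Fcgr1, chr3:96293973-96294072, - strand: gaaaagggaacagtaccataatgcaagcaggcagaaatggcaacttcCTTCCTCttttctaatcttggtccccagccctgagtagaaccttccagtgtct

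Cebpa, the gene of the inducible factor, read the floor of 16 in all 4 arrays and was not tested; whether its probe set reads the inducible form is not given in the sources used here, so it checks nothing. The lineages that the series title names, B cell and macrophage, were described by markers. Of 16 macrophage markers tested, 13 were higher at 48 h, 1 was lower, and the median log2 change was 5.36, or 4.10 with bounded genes at their bound. The summed signal of the markers on the array was 13650 and 14162 in vehicle C10 and 174019 and 176455 at 48 h. Mpeg1, which encodes the pore-forming protein perforin-2, read 65.2 and 16 in vehicle C10 and 14710 and 14450 at 48 h, at least 195-fold higher (adjusted p = 5.54e-06). Not every macrophage marker moved. Adgre1, which encodes the F4/80 antigen, read 88.5 and 87.7 against 159.9 and 139 and did not pass the test (log2 change 0.76 ± 0.42, adjusted p = 0.153). Mrc1, the mannose receptor, read 259 and 257 in vehicle C10 and fell to 72.2 and 120.4 at 48 h, with 1 array dim (log2 change -1.47 ± 0.26, adjusted p = 0.00141). The markers of tissue macrophages Marco, Cd163, Cd5l and Timd4 were dim in all 4 arrays and were not tested.

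Markers of other blood cells moved in part. Of 24 B lineage markers tested, 20 were lower and 2 higher, and the summed signal of those on the array went from 200073 and 198993 to 31918 and 34332. Of 7 granulocyte markers tested, 5 were higher and 1 lower, and the summed signal of all 16 on the array was 734 and 770 in vehicle C10 and 10750 and 12055 at 48 h. Camp, which encodes the neutrophil granule peptide cathelicidin, read 16 and 16 in vehicle C10 and 2624 and 2561 at 48 h, at least 34.7-fold higher, and then lay below its 24 h level (log2 change -1.62, adjusted p = 4.24e-05). S100a8 rose from 16.8 and 46 to 5865 and 7268, whereas the arrays read 26.8 and 16 and then 25.7 and 16 for its partner S100a9. The granulocyte genes Elane, Ctsg, Ltf and Cxcr2 were dim in all 4 arrays. The part of granulocyte genes in the receptor and protease results below was not tested.

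The remaining marker lists follow. The summed signal of the 14 mast cell, basophil and eosinophil markers on the array was 433 and 434 in vehicle C10 and 1087 and 897 at 48 h. Hdc, the histamine-forming enzyme, read 641 and 426 of that at 48 h. Of 5 T and NK markers tested none was higher and 1 lower, and Cd3e, Cd3d and Cd3g were dim throughout. Among 7 stromal and endothelial markers tested 2 were higher, and Acta2, smooth muscle actin, accounted for most of it: it read 20.5 and 128 in vehicle C10, 1 array dim, and 3391 and 3282 at 48 h, while Col1a1, Col3a1 and Dcn were dim in all 4 arrays. Of 6 erythroid and megakaryocyte markers 1 was higher and none lower. Of 9 dendritic cell markers 2 were higher and 3 lower, and of 9 stem and progenitor markers 1 was higher and 2 lower. Under spike-in scaling the medians of these last lists turned from -0.40 to 0.378 and from -0.10 to 0.505.

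Glycolytic genes were on balance higher at 48 h. Of 23 genes of glycolysis and lactate handling tested, 15 were higher and 5 lower, against 24.2% and 38.2% of all genes, and the median log2 change was 1.07. Slc2a6, a hexose transporter of lysosomal membranes, read 188 and 268 in vehicle C10 and 4450 and 4770 at 48 h (log2 change 4.36 ± 0.19, adjusted p = 6.68e-07). The glucose transporter Slc2a1 read 1042 and 839.8 and then 4015 and 3634 (log2 change 2.03 ± 0.12, adjusted p = 2.74e-06). The groups lie far apart for both. Hk3, a hexokinase of myeloid cells, read 129 and 55.4, 1 array dim, and then 1904 and 1927; its log2 change of 4.50 moved to 5.11 without vehicle replicate 1 and to 3.89 without vehicle replicate 2. Hk2 read 1294 and 1225 against 3491 and 3350 (log2 change 1.44 ± 0.07, adjusted p = 1.12e-06), and Pkm, pyruvate kinase, 2787 and 2923 against 13060 and 13130 (log2 change 2.20 ± 0.09, adjusted p = 5.39e-07). Lactate dehydrogenase Ldha was bright in every array and did not pass the test: 10320 and 10240 against 11770 and 11070 (log2 change 0.15 ± 0.07, adjusted p = 0.0807). The monocarboxylate transporter Slc16a1, which carries lactate out of the cell, fell from 8589 and 8984 to 1472 and 1342 (log2 change -2.64 ± 0.11, adjusted p = 5.07e-07). Pfkfb3, which makes the allosteric activator of phosphofructokinase, fell from 1135 and 1126 to 270.0 and 172 (log2 change -2.39 ± 0.19, adjusted p = 1.64e-05).

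The pentose phosphate pathway changed unevenly: 4 of 7 genes tested were higher and 3 lower, or 2 higher and none lower under spike-in scaling. The oxidative enzyme Pgd, which yields NADPH, read 2082 and 2105 in vehicle C10 and 18240 and 17810 at 48 h (log2 change 3.11 ± 0.09, adjusted p = 9.64e-08). NADPH feeds the phagocyte oxidase, of which 5 of 9 genes were higher and 3 lower. Cybb, its catalytic subunit gp91phox, read 2309 and 2557 and then 30690 and 32700 (log2 change 3.70 ± 0.09, adjusted p = 6.31e-08). Ncf1, the cytosolic subunit p47phox, read 598 and 593 and then 7006 and 7234 (log2 change 3.58 ± 0.09, adjusted p = 6.45e-08). The small GTPase Rac2, also part of the active complex, stood at 7842 and 8386 and 7834 and 8110 (log2 change -0.02 ± 0.07, adjusted p = 0.785). The proton channel Hvcn1, which balances the charge that the oxidase moves, fell from 1741 and 2047 to 474 and 683 (log2 change -1.73 ± 0.23, adjusted p = 0.000298), but not against HAFTL (log2 change 0.16, adjusted p = 0.567). Idh1, the cytosolic source of NADPH from isocitrate, was the 1 member of the citrate cycle list that rose, from 743 and 825 to 8337 and 7351 (log2 change 3.32 ± 0.14, adjusted p = 5.16e-07).

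Serine and one-carbon enzymes fell without exception. All 14 genes tested were lower, with a median log2 change of -1.63, and 10 of the 14 were also lower than at 24 h. Phgdh, the first enzyme of serine synthesis, read 15240 and 15290 in vehicle C10 and 3428 and 2922 at 48 h (log2 change -2.27 ± 0.08, adjusted p = 3.41e-07). Psat1, the next step, read 9072 and 9137 and then 1742 and 1358 (log2 change -2.57 ± 0.14, adjusted p = 2.44e-06), and Psph, the last, 4802 and 4620 and then 701 and 579 (log2 change -2.89 ± 0.14, adjusted p = 9.96e-07). The 48 h arrays lay below the vehicle arrays at each step. Shmt2, which moves the one-carbon unit from serine to folate in mitochondria, fell from 9561 and 9091 to 1036 and 1147 (log2 change -3.10 ± 0.09, adjusted p = 9.41e-08). Under spike-in scaling 6 of the 14 passed, all lower, with a median of -1.05.

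Of 30 genes of nucleotide synthesis tested 25 were lower and 4 higher, with a median log2 change of -1.24. Under spike-in scaling 13 were lower and 3 higher, with a median of -0.714. Rrm2, the ribonucleotide reductase subunit of S phase, read 4110 and 4183 and then 202 and 164 (log2 change -4.51 ± 0.14, adjusted p = 1.81e-07). Prps1, which makes the activated ribose of all nucleotides, fell from 2649 and 2580 to 235 and 215 (log2 change -3.54 ± 0.12, adjusted p = 2.56e-07). Tk1, the thymidine kinase of S phase, went from 473 and 524 to the floor in both arrays, at least 6.67-fold lower (adjusted p = 5.01e-08). In the other direction, Samhd1, a myeloid enzyme that breaks down deoxynucleotides and restricts retroviruses, rose from 1594 and 1625 to 6399 and 6500 (log2 change 2.00 ± 0.07, adjusted p = 2.84e-07), and deoxycytidine kinase Dck from 3963 and 3794 to 16890 and 18590 (log2 change 2.19 ± 0.08, adjusted p = 3.13e-07). Both rose further after 24 h, by log2 changes of 0.78 and 0.52.

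Of 40 genes of mitochondrial translation and import tested, 36 were lower and 1 higher, with a median log2 change of -1.16. Under spike-in scaling 10 were lower and none higher, with a median of -0.653. The chaperones Hspd1 and Hspa9 fell. Hspd1 went from 15090 and 15570 to 2744 and 2478 (log2 change -2.56 ± 0.11, adjusted p = 5.53e-07). Hspa9 went from 13830 and 14080 to 2348 and 2176 (log2 change -2.63 ± 0.08, adjusted p = 1.84e-07). Of 29 genes of the citrate cycle and pyruvate entry, 21 were lower and 1 higher, with a median of -0.76. Under spike-in scaling 5 were lower and 1 higher, with a median of -0.118. Pdha1, of pyruvate dehydrogenase, read 8706 and 9227 and then 2301 and 2384 (log2 change -1.94 ± 0.09, adjusted p = 7.77e-07). The subunits of oxidative phosphorylation moved little: 42 of 70 were lower and 3 higher with a median of -0.32, and under spike-in scaling 1 was lower and 2 higher with a median of 0.383. Cox4i1, a subunit of cytochrome c oxidase, read 21590 and 21660 and then 20100 and 20660 and did not pass (log2 change -0.09 ± 0.06, adjusted p = 0.27). Cox6a2, the subunit isoform of heart and muscle, fell: it read 5568 and 5413 in vehicle C10 and 100.3 and 28.3 at 48 h, with 1 array dim.

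Of 25 genes of amino acid metabolism tested, 7 were higher and 15 lower, with a median of -0.70, or 6 higher and 8 lower with a median of -0.128 under spike-in scaling. Cth, which makes cysteine from cystathionine, read 5020 and 5184 and then 123 and 123 (log2 change -5.38 ± 0.08, adjusted p = 1.10e-08). Ddc, the aromatic amino acid decarboxylase, read 6983 and 7134 and then 117 and 137 (log2 change -5.80 ± 0.10, adjusted p = 1.84e-08). Bcat1, the cytosolic branched-chain aminotransferase, fell from 4081 and 4089 to 214 and 163 (log2 change -4.45 ± 0.20, adjusted p = 7.38e-07). Arginase 2, Arg2, was dim in vehicle C10 at 20.3 and 16 and read 570.3 and 524 at 48 h, at least 7.32-fold higher (adjusted p = 1.21e-06). Slc15a3, a peptide and histidine transporter of lysosomes, rose from 2600 and 2894 to 14330 and 15350 (log2 change 2.43 ± 0.09, adjusted p = 3.42e-07). Kmo, of the kynurenine pathway, rose from 95 and 158 to 564 and 698 (log2 change 2.36 ± 0.31, adjusted p = 0.000309), most of it after 24 h (log2 change 1.64, adjusted p = 0.00776). Acod1, Nos2 and Arg1, which mark activated macrophages, were dim and were not tested.

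Genes of lipid storage and export were mostly higher. Of 23 genes of lipid storage and efflux tested, 14 were higher and 2 lower, with a median log2 change of 1.22. Plin2, which coats lipid droplets, read 1131 and 1157 in vehicle C10 and 16320 and 16000 at 48 h (log2 change 3.82 ± 0.07, adjusted p = 1.53e-08). Dgat1, which makes triglyceride, rose from 432 and 395 to 3054 and 3444 (log2 change 2.97 ± 0.10, adjusted p = 2.22e-07), and Abhd5, the co-activator of droplet lipase, from 154 and 187 to 2563 and 2463 (log2 change 3.89 ± 0.27, adjusted p = 7.59e-06). Abca1, which exports cholesterol to apolipoproteins, read 66 and 84.3, 1 array dim, and then 2456 and 2629 (log2 change 5.09 ± 0.25, adjusted p = 1.29e-06). Apoc2, the activator of lipoprotein lipase, was dim at 22.7 and 56.8 and reached 11260 and 12000, at least 156-fold higher. Apoe rose less, from 193 and 187 to 495 and 590.4 (log2 change 1.51 ± 0.18, adjusted p = 0.000149). Abca1, Apoc2 and Apoe were all higher than at 24 h as well. Of the 23 genes 5 were called higher than at 24 h and 3 lower, beside 9.47% and 17.9% of all genes. Nr1h3, which encodes the sterol-sensing receptor LXRα, read 52.4 and 88.5 against 50.7 and 57, 3 of the arrays dim, and did not pass.

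Fatty acid and sterol synthesis gave 14 of 33 genes higher and 7 lower, with a median of 0.13, and under spike-in scaling 7 higher and none lower. The direction turned against HAFTL, with 9 higher and 14 lower and a median of -0.155, and also where only changes above a log2 value of 1 were called, with 2 higher and 3 lower. Elovl5, which elongates polyunsaturated fatty acids, rose from 4995 and 4302 to 13890 and 14370 (log2 change 1.61 ± 0.09, adjusted p = 2.09e-06), whereas Elovl6, which elongates saturated ones, fell from 3925 and 3577 to 1421 and 1360 (log2 change -1.43 ± 0.10, adjusted p = 7.48e-06). The desaturase Scd1 fell from 10100 and 10540 to 2976 and 3428 (log2 change -1.69 ± 0.08, adjusted p = 1.14e-06) and its paralogue Scd2 stood at 18360 and 18390 and 19080 and 19250 (log2 change 0.06 ± 0.06, adjusted p = 0.444). Fasn, fatty acid synthase, did not pass either, at 2385 and 1959 and 2368 and 2169 (log2 change 0.07 ± 0.12, adjusted p = 0.644). Fatty acid oxidation gave 13 of 24 lower and 3 higher with a median of -0.31, which became 1 lower and 3 higher with a median of 0.249 under spike-in scaling. Cpt1a, the gate of fatty acids into mitochondria, was among the 3 that rose, from 1068 and 934 to 1904 and 2041 (log2 change 0.98 ± 0.13, adjusted p = 0.000312).

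Of 14 genes of eicosanoid synthesis tested 8 were higher and 4 lower. Ptgs2, whose promoter is shown above, was dim in vehicle C10 at 16 and 30.9 and read 5331 and 5349 at 48 h, at least 71.5-fold higher (adjusted p = 2.69e-07). Alox5ap, which presents arachidonate to 5-lipoxygenase, rose from 1864 and 1858 to 13590 and 13470 (log2 change 2.86 ± 0.10, adjusted p = 2.71e-07). The lipoxygenase itself, Alox5, read 44.8 and 94.1 and 71.7 and 78.5, 1 array of each group dim, and did not pass. Hpgd, which inactivates prostaglandins, rose from 239 and 194 to 3869 and 3652 (log2 change 4.13 ± 0.12, adjusted p = 1.33e-07).

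Iron genes moved both ways, 10 of 25 higher and 10 lower, or 10 higher and 1 lower under spike-in scaling. Slc11a1, the metal transporter NRAMP1 of phagosomes, read 162 and 113 and then 1196 and 1203 (log2 change 3.14 ± 0.17, adjusted p = 1.91e-06), and the transferrin receptor Tfrc read 9101 and 8284 and then 1639 and 1539 (log2 change -2.45 ± 0.08, adjusted p = 1.81e-07). Hp, which encodes the haemoglobin-binding protein haptoglobin, was dim at 28 and 16 and read 15980 and 15980 at 48 h, at least 214-fold higher. Hmox1, haem oxygenase, read 185 and 128 and then 438 and 414 (log2 change 1.47 ± 0.38, adjusted p = 0.0108), and without vehicle replicate 2 it did not pass (log2 change 1.20, adjusted p = 0.0693). The metal-binding metallothioneins fell. Mt1 went from 6535 and 6524 to 989 and 1085 (log2 change -2.66 ± 0.08, adjusted p = 1.77e-07). Mt2 went from 6480 and 6720 to 721 and 771 (log2 change -3.15 ± 0.13, adjusted p = 5.02e-07). They belong to a list of 29 antioxidant genes, of which 16 were lower and 8 higher, with a median of -0.34 that became 0.207 under spike-in scaling. Its regulator Nfe2l2 rose from 2776 and 2667 to 5902 and 6511 (log2 change 1.19 ± 0.08, adjusted p = 8.54e-06).

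**Figure D2:**
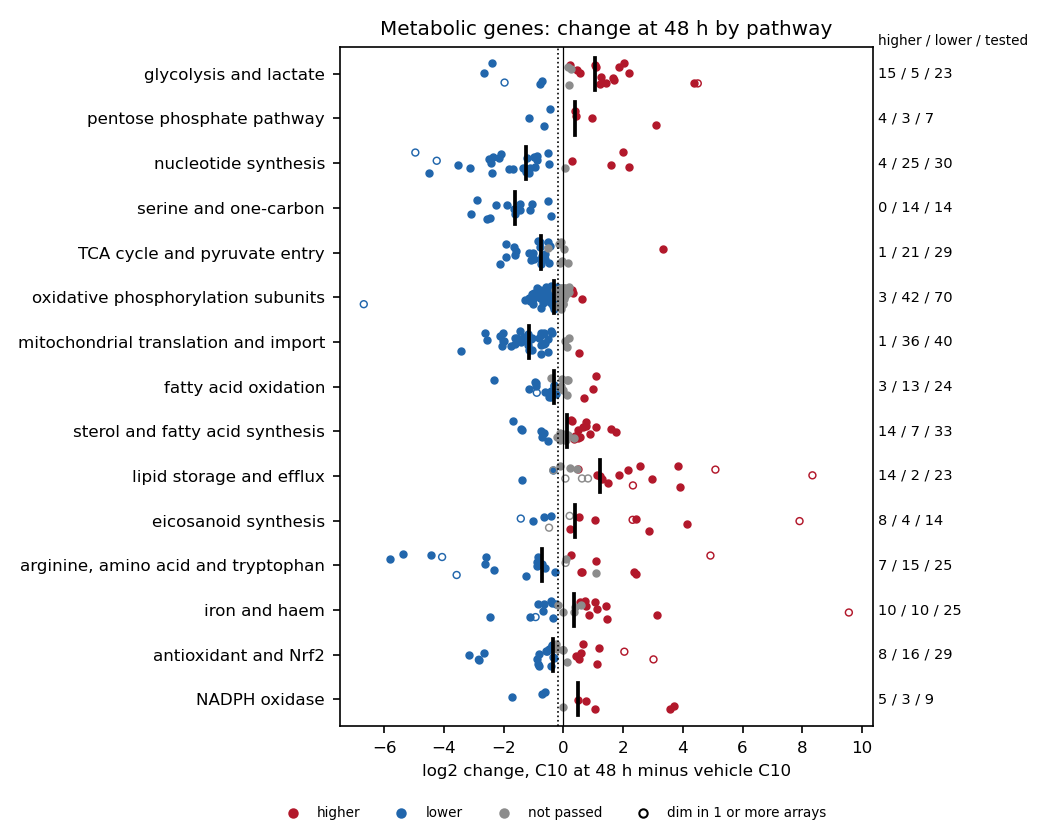
Log2 change at 48 h against vehicle C10 (horizontal axis) of every gene tested in 15 metabolic lists (rows). Each point is a gene, red if called higher, blue if called lower and grey if it did not pass, open where 1 or more arrays were dim; the black bar is the list's median, the dotted line the median of all genes (-0.19), and the numbers at the right count genes higher, lower and tested. Serine and one-carbon genes lie wholly to the left, while glycolysis and lipid storage have medians of 1.07 and 1.22.

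Lysosomal genes were mostly higher. Of 16 subunits of the V-ATPase, the proton pump that acidifies lysosomes, 14 were higher and 1 lower, with a median log2 change of 1.05. Atp6v0a1, an isoform of the membrane subunit a, read 218 and 155 in vehicle C10 and 6836 and 6731 at 48 h (log2 change 5.20 ± 0.18, adjusted p = 2.21e-07). Another isoform, Tcirg1, which encodes subunit a3, read 1068 and 1076 and then 2937 and 2749 (log2 change 1.41 ± 0.08, adjusted p = 2.36e-06). The catalytic subunit Atp6v1a read 1021 and 1259 and then 4744 and 4173 (log2 change 1.97 ± 0.12, adjusted p = 3.86e-06). Of 30 genes of the lysosomal membrane and its regulators, 21 were higher and 3 lower, with a median of 1.20. Mitf and Tfec, of the factor family that drives lysosomal genes, both rose: Mitf from 166 and 114 to 616 and 566 (log2 change 2.11 ± 0.22, adjusted p = 7.02e-05) and Tfec from 45.5 and 16, dim, to 1296 and 1195, at least 16.7-fold. Mcoln2, a lysosomal cation channel, rose from 152 and 132 to 652 and 696 (log2 change 2.25 ± 0.22, adjusted p = 5.45e-05). Rragd, a GTPase that ties the lysosome to mTORC1, fell from 456 and 383 to 111 and 118 (log2 change -1.87 ± 0.21, adjusted p = 0.00012).

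Of 40 lysosomal hydrolases, 23 were higher and 7 lower, with a median of 0.53. Among those that rose were several cathepsins. Ctsb read 4599 and 4163 and then 21820 and 22590 (log2 change 2.34 ± 0.07, adjusted p = 1.34e-07), Ctsa 1559 and 1612 and then 8634 and 8976 (log2 change 2.47 ± 0.11, adjusted p = 6.42e-07), and Ctsc, which activates serine proteases, 8602 and 8378 and then 39320 and 37880 (log2 change 2.18 ± 0.06, adjusted p = 9.77e-08). Ctsl was dim at 16 and 21.2 and read 308 and 296 at 48 h, at least 4.04-fold higher, and rose after 24 h (log2 change 2.84, adjusted p = 0.0118). Of these hydrolases 15 were higher than at 24 h and 2 lower. The tartrate-resistant phosphatase Acp5, a marker of osteoclasts, fell from 1344 and 1333 to 446 and 506 (log2 change -1.49 ± 0.11, adjusted p = 1.26e-05), and the sulphatase Arsb from 1294 and 1390 to 280.4 and 426 (log2 change -1.96 ± 0.20, adjusted p = 7.18e-05).

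Membrane traffic genes were more often higher than lower in each family. Of 50 Rab GTPases and effectors 27 were higher and 8 lower, of 37 SNARE genes 18 and 5, of 45 genes of endosomal sorting 25 and 10, and of 28 genes of clathrin and its adaptors 16 and 4. Their median log2 changes lay between 0.21 and 0.50. Under spike-in scaling the counts were 24 and none, 11 and none, 20 and 2, and 10 and none. Rin2, an exchange factor for Rab5, was dim at 40.6 and 67.8 and read 1946 and 2091 at 48 h, at least 27-fold higher. Rab27a, of secretory lysosomes, rose from 183 and 209 to 483 and 492 (log2 change 1.32 ± 0.19, adjusted p = 0.000497) and lay below its 24 h level (log2 change -0.85). Snap23, a plasma membrane SNARE of phagocytosis and exocytosis, rose from 737 and 729 to 3111 and 3249 (log2 change 2.12 ± 0.10, adjusted p = 1.06e-06). Vamp8 and Stx7, of late endosome fusion, also rose. Vamp8 went from 1081 and 1373 to 3065 and 3451 (log2 change 1.42 ± 0.14, adjusted p = 6.01e-05). Stx7 went from 3252 and 3310 to 8199 and 9101 (log2 change 1.40 ± 0.09, adjusted p = 5.23e-06). Early endosome Rab5a stood at 3944 and 4258 and 3622 and 3518 (log2 change -0.20 ± 0.08, adjusted p = 0.0604), and clathrin heavy chain Cltc at 7065 and 7604 and 8048 and 8554 (log2 change 0.18 ± 0.07, adjusted p = 0.0602); neither passed.

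Of the endosomal sorting genes, Ehd1 and Ehd4, which return cargo to the surface, rose. Ehd1 went from 1515 and 1433 to 6129 and 5730 (log2 change 2.01 ± 0.09, adjusted p = 9.41e-07). Ehd4 went from 961 and 977 to 4220 and 4645 (log2 change 2.19 ± 0.10, adjusted p = 6.79e-07). Snx5, a nexin of retromer, fell from 23450 and 24190 to 7331 and 6423 (log2 change -1.80 ± 0.09, adjusted p = 1.41e-06). Gga2, a Golgi to endosome adaptor, fell from 1211 and 1293 to 276 and 339 (log2 change -2.03 ± 0.12, adjusted p = 3.89e-06). The retromer core gene Vps29 did not pass at 5022 and 5081 and 5244 and 5057 (log2 change 0.03 ± 0.06, adjusted p = 0.725). Of 32 autophagy genes 19 were higher and 3 lower, with a median of 0.38. Atg13, of the initiating kinase complex, rose from 525 and 504 to 3423 and 3591 (log2 change 2.77 ± 0.14, adjusted p = 1.50e-06), of which a log2 change of 1.03 came after 24 h, and the cargo receptor Sqstm1 stood at 4726 and 4737 and 5123 and 5257 (log2 change 0.13 ± 0.07, adjusted p = 0.127).

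Of 44 genes of actin, the phagocytic cup and motility, 28 were higher and 7 lower, with a median of 0.43. Rhoc, a GTPase of contractile actin, rose from 88.8 and 82.3 to 959.7 and 1019 (log2 change 3.53 ± 0.38, adjusted p = 8.98e-05) and Zyx, of focal adhesions, from 129 and 128 to 1274 and 1512 (log2 change 3.44 ± 0.56, adjusted p = 0.000969). Flna and Diaph1, which cross-link and extend filaments, rose. Flna went from 1199 and 1263 to 5375 and 5392 (log2 change 2.13 ± 0.07, adjusted p = 2.22e-07). Diaph1 went from 1857 and 1681 to 7253 and 7642 (log2 change 2.08 ± 0.08, adjusted p = 3.24e-07). The profilin Pfn2 went the other way, from 3823 and 3477 to 61.4 and 49.5, dim, at least 48.8-fold lower (adjusted p = 7.95e-08). None of the list was higher than at 24 h and 11 were lower, beside 9.47% and 17.9% of all genes.

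Most pattern recognition receptors rose. Of 23 genes of the Toll-like receptors and their adaptors 19 were higher and 2 lower, with a median log2 change of 1.51, or 1.42 with bounded genes at their bound. Tlr2, which senses bacterial lipoproteins, read 309.6 and 288 in vehicle C10 and 17730 and 16550 at 48 h (log2 change 5.84 ± 0.18, adjusted p = 1.55e-07). Tlr4, the lipopolysaccharide receptor, was present before and rose less, from 1253 and 1108 to 3817 and 3494 (log2 change 1.63 ± 0.12, adjusted p = 9.60e-06), and its coreceptor Cd14 went from 66.2 and 39.7, dim, to 33510 and 32190, at least 440.0-fold. Of the endosomal receptors of RNA, Tlr7 read 16 and 24.9 and then 418 and 368, at least 5.25-fold higher, with a log2 change of 2.22 since 24 h, and Tlr3 read 112 and 114 and then 1208 and 1386 (log2 change 3.52 ± 0.12, adjusted p = 2.21e-07), with 1.45 since 24 h. Cd180, a B cell relative of Tlr4, stood at 286 and 319.7 and 294 and 321 (log2 change 0.02 ± 0.13, adjusted p = 0.9). Sigirr, an inhibitor of the pathway, fell from 644 and 717 to 433 and 461 (log2 change -0.61 ± 0.11, adjusted p = 0.00176). Of 20 cytosolic sensors and inflammasome genes 17 were higher and none lower, with a median of 2.71, or 2.52 at the bounds. The list includes Il1rn and Il1b, which are counted again among the cytokines below. Zbp1, a sensor of unusual nucleic acid duplexes, went from the floor in both vehicle arrays to 3153 and 3134, at least 42.1-fold. The helicases Ifih1 and Dhx58, which sense viral RNA, rose. Ifih1 went from 100.3 and 105 to 3561 and 3239 (log2 change 5.05 ± 0.48, adjusted p = 4.63e-05). Dhx58 went from 281 and 258 to 4296 and 4712 (log2 change 4.06 ± 0.22, adjusted p = 2.24e-06).

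Of 24 C-type lectin, scavenger and clearance receptors tested 19 were higher and 1 lower, with a median of 2.74, or 2.28 at the bounds, and 10 were higher than at 24 h. Of the 39 on the array 15 were not tested, and 14 were dim in all 4 arrays. The neighbouring lectin genes Clec4d, Clec4e and Clec4n were dim in vehicle C10. At 48 h they read 6983 and 6706, 2856 and 2799 and 2718 and 3126 in turn, at least 91.7-fold, 37.9-fold and 39-fold higher. Their log2 changes since 24 h were 3.03, 3.06 and 3.32. Clec7a, the beta-glucan receptor dectin-1, was measured in both groups and rose from 838 and 961 to 13630 and 13920 (log2 change 3.94 ± 0.09, adjusted p = 5.21e-08). Msr1, scavenger receptor A, went from 70.6 and 18, dim, to 3313 and 3640, at least 46.5-fold, and Siglec1, sialoadhesin, from 22.1 and 16, dim, to 1649 and 1339, at least 19.9-fold. Trem2 read 64.8 and 104 and 97.2 and 16, 1 array of each group dim, and did not pass, though without 48 h replicate 1 it was lower (log2 change -2.36, adjusted p = 0.0292).

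Fc, complement and paired receptors gave 18 of 23 genes higher and 4 lower, with a median of 3.73, or 3.33 at the bounds. Tyrobp, the signalling adaptor DAP12, read 215 and 215 in vehicle C10 and 30030 and 31700 at 48 h (log2 change 7.17 ± 0.13, adjusted p = 2.01e-08). C3ar1, a complement receptor, was dim at 16 and 33.4 and reached 12470 and 13610, at least 175-fold, and Fcgr3 was dim at 59.7 and 35.7 and reached 14020 and 13740, at least 186-fold. Sirpa, which inhibits uptake on contact with CD47, rose from 373 and 385 to 4554 and 4536 (log2 change 3.58 ± 0.10, adjusted p = 7.95e-08). Among those that fell were receptors of B cells, Fcrl1 from 3230 and 3164 to 94.2 and 83.1 (log2 change -5.18 ± 0.26, adjusted p = 1.30e-06) and Cr2, complement receptor 2, from 1171 and 1377 to 36.1 and 16, dim, at least 17-fold.

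Of 18 chemoattractant receptors tested, out of 27 on the array, 11 were higher and 4 lower. Ccr1 read 125 and 144 and then 10610 and 10110 (log2 change 6.27 ± 0.12, adjusted p = 2.49e-08), and Ccr2, the receptor of inflammatory monocytes, 1182 and 901 and then 12040 and 12010 (log2 change 3.54 ± 0.15, adjusted p = 5.27e-07). Fpr2, a formyl peptide receptor, went from the floor in both vehicle arrays to 1264 and 1347, at least 17.5-fold, with a log2 change of 4.39 since 24 h. Cxcr4, which holds precursors in bone marrow, fell from 2801 and 2137 to 242 and 281 (log2 change -3.23 ± 0.19, adjusted p = 3.42e-06). S1pr4 fell from 1662 and 1607 to 243 and 234 (log2 change -2.78 ± 0.07, adjusted p = 7.95e-08). Among 27 other G protein-coupled receptors and channels 12 were higher and 7 lower. Gpr84, a receptor for medium-chain fatty acids, rose from 142 and 97 to 2424 and 2594 (log2 change 4.42 ± 0.16, adjusted p = 3.07e-07) and lay below its 24 h level (log2 change -1.38), and the adhesion receptor Adgre5, CD97, fell from 2674 and 2877 to 236 and 258 (log2 change -3.49 ± 0.09, adjusted p = 6.77e-08).

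Of 41 cytokine and growth factor receptors tested 23 were higher and 5 lower, with a median of 0.91. Csf2ra and Csf2rb2, which bind GM-CSF and interleukin-3, rose. Csf2ra went from 425 and 361 to 2864 and 3131 (log2 change 2.93 ± 0.15, adjusted p = 1.29e-06). Csf2rb2 went from 433 and 449.8 to 4080 and 4407 (log2 change 3.26 ± 0.09, adjusted p = 1.03e-07). Il6ra read 349 and 364 and then 2712 and 2440 (log2 change 2.85 ± 0.15, adjusted p = 1.76e-06), and its signalling partner Il6st 718 and 627 and then 5223 and 5244 (log2 change 2.96 ± 0.10, adjusted p = 2.44e-07). Il7r, the receptor B cell precursors depend on, fell from 12930 and 11840 to 549 and 531 (log2 change -4.52 ± 0.11, adjusted p = 5.25e-08). It nevertheless lay above its 24 h level at 48 h (log2 change 1.45, adjusted p = 0.000127). Csf3r, the receptor of granulocytes, was dim in all 4 arrays.

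In the TNF superfamily 10 of 22 tested, out of 31 on the array, were higher and 4 lower. Tnfsf9, the ligand 4-1BBL, rose from 152 and 109.8 to 2552 and 2387 (log2 change 4.25 ± 0.19, adjusted p = 8.44e-07), and Fas, dim at 31.9 and 60.7, reached 1735 and 1751, at least 23.4-fold. Lta, lymphotoxin α, fell from 8117 and 8714 to 113 and 135 (log2 change -6.09 ± 0.22, adjusted p = 2.83e-07), the largest fall among the genes whose 4 arrays were all above the dim level. Tnf itself did not pass, at 949.5 and 1183 and 748 and 767 (log2 change -0.49 ± 0.24, adjusted p = 0.112). Of 30 integrins and adhesion molecules tested, out of 41 on the array, 20 were higher and 3 lower. Emb, embigin, went from the floor to 2487 and 2317, at least 32.2-fold, and Cd44, the hyaluronan receptor, from 2892 and 2827 to 16790 and 14120 (log2 change 2.43 ± 0.12, adjusted p = 1.16e-06). Among 22 co-stimulatory and inhibitory molecules 11 were higher and 8 lower. Vsir, the checkpoint VISTA, rose from 301 and 271 to 6140 and 6814 (log2 change 4.50 ± 0.29, adjusted p = 4.85e-06) and Cd86, dim at 32.3 and 56.5, reached 1036 and 1039, at least 13.9-fold. Of the SLAM family, Slamf6 fell from 2098 and 2234 to 459 and 451 (log2 change -2.25 ± 0.09, adjusted p = 4.87e-07) and Cd244a from 1058 and 951 to 18.8 and 16, dim, at least 13.4-fold.

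For MHC class I and the immunoproteasome 13 of 18 genes were higher and 3 lower, with a median of 0.70. Tap1, which carries peptides into the endoplasmic reticulum, rose from 968 and 922 to 3672 and 3970 (log2 change 2.01 ± 0.08, adjusted p = 4.47e-07). For class II 3 of 15 were higher and 6 lower, with a median of -0.34 that became 0.223 under spike-in scaling. These shares, 20% and 40%, lay near the 24.2% and 38.2% of all genes. Against HAFTL 8 were higher and 5 lower, with a median of 0.315. The invariant chain Cd74 rose from 11050 and 12140 to 28050 and 28320 (log2 change 1.28 ± 0.08, adjusted p = 3.32e-06), and H2-DMa, which loads peptides, from 824 and 755 to 2083 and 2443 (log2 change 1.52 ± 0.21, adjusted p = 0.000375). Among those that fell were H2-Aa from 1215 and 1324 to 65.2 and 94.1, 1 array dim (log2 change -4.02 ± 0.28, adjusted p = 7.47e-06), and H2-Eb1 from 1358 and 1433 to 382 and 408 (log2 change -1.82 ± 0.11, adjusted p = 3.90e-06). Ifi30, the thiol reductase of antigen processing, fell from 14040 and 13970 to 1128 and 1302 (log2 change -3.53 ± 0.08, adjusted p = 5.17e-08). Set against HAFTL in place of vehicle C10, H2-Eb1 was higher at 48 h (log2 change 0.54, adjusted p = 0.00346).

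**Figure D3:**
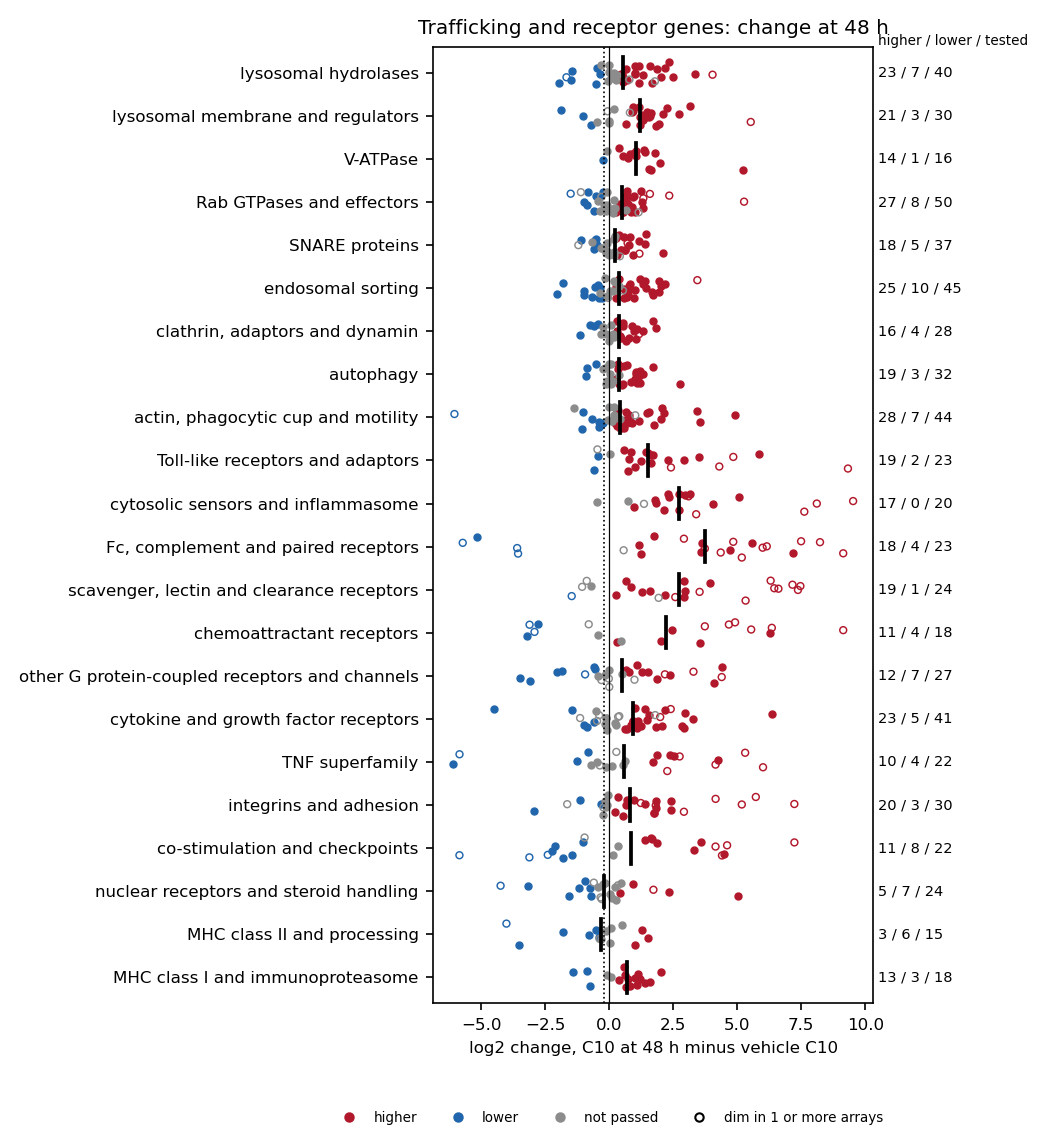
Log2 change at 48 h against vehicle C10 (horizontal axis) of every gene tested in 9 trafficking and 13 receptor lists (rows), with points, bars, dotted line and counts as in the plot of metabolic genes. Traffic lists have medians a little above 0, up to 1.20 for lysosomal membrane genes, while the pattern recognition and Fc receptor lists reach 3.73.

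Nuclear receptors and steroid enzymes gave 5 of 24 higher and 7 lower, with a median of -0.21 that became 0.330 under spike-in scaling. Hsd11b1, which regenerates active glucocorticoid, read 153 and 124 and then 4476 and 4537 (log2 change 5.03 ± 0.27, adjusted p = 2.03e-06), and the glucocorticoid receptor Nr3c1 1420 and 1100 and then 2422 and 2389 (log2 change 0.94 ± 0.12, adjusted p = 0.000224). The glucocorticoid-induced genes Tsc22d3 and Fkbp5 fell. Tsc22d3 went from 4454 and 5513 to 1516 and 1851 (log2 change -1.56 ± 0.19, adjusted p = 0.000175). Fkbp5 went from 733 and 557 to 289.9 and 273 (log2 change -1.18 ± 0.13, adjusted p = 0.000123). The clock repressors fell too: Nr1d2 from 2141 and 1697 to 229 and 196 (log2 change -3.17 ± 0.18, adjusted p = 3.02e-06) and Nr1d1 from 542 and 552 to 52 and 16, dim, at least 7.33-fold. Esr1, the estrogen receptor gene, read 207 and 209.7 in vehicle C10 and 102 and 116 at 48 h (log2 change -0.94 ± 0.26, adjusted p = 0.0153). Its call was lost without either vehicle array or without 48 h replicate 1 (adjusted p = 0.056, 0.0604 and 0.0761), and against HAFTL the change was turned (log2 change 1.78). Pparg was dim in all 4 arrays and was not tested.

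Among myeloid transcription factors 19 of 28 were higher and 6 lower, with a median of 1.04. Nfil3, a leucine zipper factor, went from the floor in both vehicle arrays to 1878 and 1416, at least 21.8-fold, and Nfe2 rose from 98.7 and 63, 1 array dim, to 1504 and 1527 (log2 change 4.26 ± 0.20, adjusted p = 1.04e-06). Irf8, a factor of both B cells and monocytes, was bright throughout at 14860 and 15170 and 10960 and 11760 (log2 change -0.40 ± 0.09, adjusted p = 0.00523). Its small fall was turned under spike-in scaling (log2 change 0.38, adjusted p = 0.530) and against HAFTL (log2 change 0.67, adjusted p = 0.000358). Dbp and Egr3 fell, Dbp from 647 and 628 to 60.3 and 48.3, dim, at least 8.53-fold, and Egr3 from 509.5 and 544 to 68.6 and 51.1, dim, at least 7.05-fold. Against HAFTL Egr3 did not fall (log2 change 0.11, adjusted p = 0.493). Of 35 factors of the B lineage 25 were lower and 6 higher, with a median of -1.28, or 16 lower and 6 higher with a median of -0.770 under spike-in scaling. Ikzf3, Aiolos, went from 1520 and 1420 to 16 and 21.1, dim, at least 19.7-fold lower, and Aff3 from 4345 and 4210 to 95 and 129 (log2 change -5.27 ± 0.19, adjusted p = 2.80e-07). Bach2, which holds B cells from plasma cell and myeloid fates, fell from 5985 and 4607 to 189 and 287 (log2 change -4.50 ± 0.21, adjusted p = 9.96e-07), and Bcl11a from 5009 and 4968 to 188 and 229.6 (log2 change -4.59 ± 0.16, adjusted p = 2.56e-07). Id1 and Id2, which block the E proteins of B cell development, rose. Id1 went from 129.9 and 78.7 to 1914 and 1460 (log2 change 4.05 ± 0.53, adjusted p = 0.000289). Id2 went from 277 and 311 to 2714 and 2744 (log2 change 3.21 ± 0.12, adjusted p = 2.98e-07).

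Of 21 AP-1 and ATF genes 9 were higher and 6 lower. Fosl2 went from the floor in both vehicle arrays to 3912 and 3825, at least 51.8-fold, and Jun from 1193 and 1257 to 9390 and 12900 (log2 change 3.17 ± 0.17, adjusted p = 1.99e-06), of which a log2 change of 1.28 came after 24 h. Of 22 genes of NF-kB and its regulators 16 were higher and 2 lower. Tnfaip3, the inhibitor A20, rose from 281 and 237 to 1626 and 1802 (log2 change 2.73 ± 0.12, adjusted p = 6.42e-07), and Nfkbiz from 557 and 544 to 2549 and 2866 (log2 change 2.30 ± 0.13, adjusted p = 2.71e-06). Nfkbia did not pass at 7600 and 7722 and 8609 and 7828 (log2 change 0.10 ± 0.08, adjusted p = 0.344). Of 26 genes of the JAK-STAT pathway 16 were higher and 3 lower, and Socs1 and Socs3, its feedback inhibitors, rose. Socs1 went from 174 and 153 to 741 and 786 (log2 change 2.22 ± 0.32, adjusted p = 0.00051). Socs3 went from 1070 and 1373 to 5213 and 5156 (log2 change 2.10 ± 0.17, adjusted p = 2.11e-05).

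Of 53 interferon-response genes tested 51 were higher and none lower, with a median log2 change of 3.74, or 3.65 at the bounds, and 39 were higher than at 24 h. Ifit3 and Rsad2, whose promoters are shown above, read 108 and 145 and 70.5 and 77.2 in vehicle C10, Rsad2 with 1 array dim. At 48 h Ifit3 read 11550 and 12310 (log2 change 6.57 ± 0.37, adjusted p = 2.34e-06) and Rsad2 read 20510 and 19020 (log2 change 8.06 ± 0.32, adjusted p = 4.26e-07). Irf7, the factor that amplifies the response, went from the floor in both vehicle arrays to 15430 and 18190, at least 224-fold, with a log2 change of 2.20 since 24 h. Usp18, its negative regulator, went from 52.1 and 16, dim, to 17480 and 17880, at least 237-fold. Irf3, which is activated by phosphorylation, stood at 1993 and 2090 and 1915 and 2076 (log2 change -0.03 ± 0.08, adjusted p = 0.727).

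Of 39 genes of MAP kinase and calcium feedback 21 were higher and 10 lower. The pseudokinase Trib1 rose from 367 and 368 to 3371 and 3156 (log2 change 3.15 ± 0.12, adjusted p = 4.09e-07) while Trib2 fell from 6887 and 6371 to 917 and 872 (log2 change -2.89 ± 0.11, adjusted p = 3.28e-07) and Trib3 from 4163 and 4316 to 291 and 323 (log2 change -3.79 ± 0.09, adjusted p = 5.82e-08). The phosphatase Dusp2 fell from 2703 and 2462 to 692 and 772 (log2 change -1.82 ± 0.21, adjusted p = 0.000132). Of 39 genes of Src-family, B cell receptor and phosphoinositide signalling 18 were higher and 14 lower. Src was dim at 20.2 and 16.5 and read 419 and 335, at least 5.02-fold higher, and the adaptor Lcp2, SLP-76, rose from 255 and 222 to 2297 and 2220 (log2 change 3.25 ± 0.11, adjusted p = 2.13e-07). The B cell adaptor Blnk fell from 14450 and 12010 to 3064 and 3485 (log2 change -2.01 ± 0.14, adjusted p = 7.21e-06), and Ptprc, CD45, stood at 12510 and 12690 and 12970 and 13760 (log2 change 0.08 ± 0.07, adjusted p = 0.302).

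Of 59 histone modifiers 29 were lower and 15 higher, a share of 25.4% higher and 49.2% lower beside 24.2% and 38.2% of all genes. Their median of -0.40 became 0.152 under spike-in scaling, with 9 higher and 7 lower. Of 37 genes of chromatin remodelling and architecture 24 were lower and 7 higher, with a median of -0.70, though 6 were higher and 4 lower under that scaling. Among the histone deacetylases that fell were Hdac7 from 2532 and 2684 to 333 and 444 (log2 change -2.76 ± 0.14, adjusted p = 1.29e-06), Hdac9 from 1375 and 1416 to 256 and 220.0 (log2 change -2.55 ± 0.11, adjusted p = 6.42e-07) and Hdac11 from 518 and 528 to the floor in both arrays, at least 7.01-fold. Hdac4 and Hdac5, of the same class as Hdac7 and Hdac9 and named after their values were seen, were higher, Hdac4 with a log2 change 0.71 ± 0.18, adjusted p = 0.00831 and Hdac5 with a log2 change 0.29 ± 0.07, adjusted p = 0.0085. Their calls were lost in several alternatives, among them the fit on the 4 arrays alone. Ezh2, the methyltransferase of Polycomb, fell from 5647 and 5416 to 1356 and 1534 (log2 change -1.94 ± 0.08, adjusted p = 4.94e-07). Of the lamins, Lmna rose from 266 and 226 to 1174 and 1010 (log2 change 2.15 ± 0.17, adjusted p = 1.54e-05). Lmnb1 fell from 549 and 558 to 117 and 69.1, 1 array dim (log2 change -2.62 ± 0.22, adjusted p = 2.17e-05). In DNA methylation 5 of 16 were higher and 6 lower, with a median of -0.14 that became 0.377 under spike-in scaling. Tet2, which oxidises methylcytosine, rose from 649.8 and 789.9 to 3410 and 3157 (log2 change 2.20 ± 0.11, adjusted p = 1.55e-06). Dnmt3b fell from 713 and 883 to 121 and 127 (log2 change -2.68 ± 0.12, adjusted p = 7.61e-07), Uhrf1, which guides maintenance methylation, from 1191 and 936 to 172 and 113 (log2 change -2.92 ± 0.23, adjusted p = 1.40e-05), and Dnmt1 from 1649 and 1910 to 922 and 998 (log2 change -0.89 ± 0.09, adjusted p = 8.32e-05).

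All 54 genes of mitosis tested were lower, with a median of -3.99, or -3.47 at the bounds, and 51 were lower than at 24 h. Of 40 replication genes 38 were lower and none higher, with a median of -2.14. Under spike-in scaling 49 mitosis genes and 24 replication genes were lower and none higher. Mcm5, of the replicative helicase, read 3695 and 3859 and then 199 and 183 (log2 change -4.31 ± 0.08, adjusted p = 2.02e-08). Top2a, whose promoter is shown above, read 4722 and 4540 and then 166 and 138 (log2 change -4.94 ± 0.11, adjusted p = 3.98e-08), and its log2 change since 24 h was -3.11. Of 46 ribosome biogenesis genes 43 were lower and 1 higher, Heatr1, which rose from 3261 and 2889 to 7842 and 7305 (log2 change 1.30 ± 0.08, adjusted p = 3.67e-06). Of 35 tRNA synthetases and translation factors 30 were lower and 2 higher. Under spike-in scaling 26 ribosome biogenesis genes were lower and 1 higher, and of the synthetases and translation factors 8 were lower and none higher. The synthetase Eprs read 7803 and 8272 and then 1315 and 1308 (log2 change -2.62 ± 0.10, adjusted p = 3.70e-07). The proteasome moved little, 16 of 31 lower and 3 higher with a median of -0.25, which became none lower and 2 higher with a median of 0.368 under spike-in scaling. Of 11 genes of the Myc network 4 were higher and 2 lower, Myc itself among the lower. Their median of 0.08 became -0.00338 where the arrays were centred on their medians. Mxd1, which competes with Myc for its partner, rose from 216 and 249 to 1698 and 2198 (log2 change 3.06 ± 0.17, adjusted p = 2.55e-06).

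Of 32 genes of the unfolded protein response 19 were higher and 8 lower, with a median of 0.70. Among those that rose were Ern1, which encodes Ire1α, from 582 and 614 to 2162 and 2185 (log2 change 1.86 ± 0.08, adjusted p = 5.14e-07), Xbp1 from 2775 and 2306 to 9419 and 9119 (log2 change 1.87 ± 0.10, adjusted p = 2.05e-06) and Edem1, of protein degradation, from 1282 and 1096 to 13170 and 12990 (log2 change 3.46 ± 0.09, adjusted p = 7.95e-08). Among those that fell were Atf4, a factor of the integrated stress response, from 11010 and 11740 to 5786 and 5416 (log2 change -1.02 ± 0.08, adjusted p = 1.43e-05) and Ddit3 from 7402 and 7336 to 2757 and 2873 (log2 change -1.39 ± 0.09, adjusted p = 4.20e-06), although Ddit3 lay above its 24 h level (log2 change 1.11). Sesn2, a stress-inducible regulator of mTORC1, rose from 280.0 and 356 to 776 and 599 (log2 change 1.11 ± 0.15, adjusted p = 0.00033). In the Bcl2 family and cell death genes 14 of 26 were higher and 5 lower. Bcl2l11, the death factor Bim, rose from 3783 and 3676 to 10790 and 11560 (log2 change 1.58 ± 0.08, adjusted p = 1.05e-06), and Bmf, of the same class, fell from 4831 and 4489 to 2037 and 2477 (log2 change -1.05 ± 0.16, adjusted p = 0.000637).

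**Figure D4:**
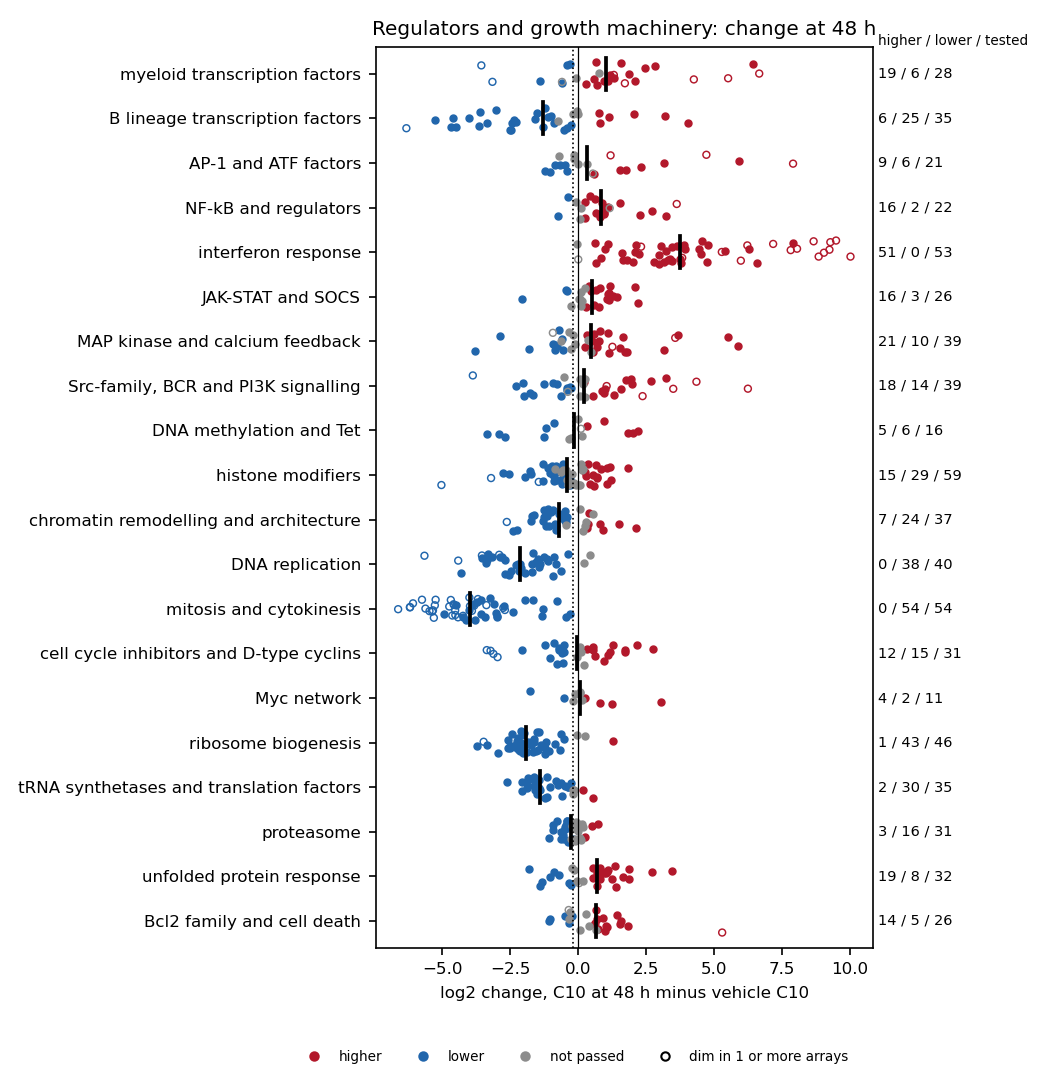
Log2 change at 48 h against vehicle C10 (horizontal axis) of every gene tested in 20 lists of regulators and growth machinery (rows), with points, bars, dotted line and counts as in the plot of metabolic genes. Interferon-response genes have a median of 3.74 and mitosis genes one of -3.99, with every mitosis gene blue.

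Of 33 matrix proteases, inhibitors and matrix genes 25 were higher and 2 lower, with a median of 2.13, or 1.99 at the bounds. Mmp12, macrophage elastase, went from the floor in both vehicle arrays to 34320 and 35090, at least 465-fold, and rose by 2.59 on the log2 scale after 24 h. Mmp13 and Mmp8, both collagenases, were dim and read 26920 and 27960 and 12880 and 13690 at 48 h, at least 368-fold and 178-fold higher. Emilin2 was measured in both groups, at 149 and 132 and then 14200 and 14800 (log2 change 6.69 ± 0.12, adjusted p = 1.86e-08). Of 17 chemokines tested, out of 26 on the array, 10 were higher and 1 lower. Ccl6 read 161 and 134 and then 14370 and 14500 (log2 change 6.62 ± 0.12, adjusted p = 1.86e-08), and Ccl9 305 and 285 and then 30310 and 28050 (log2 change 6.63 ± 0.12, adjusted p = 2.02e-08). Cxcl3 was dim at 16 and 19.5 and read 662 and 696, at least 9.09-fold higher, with a log2 change of 4.93 since 24 h. Of 24 cytokines and growth factors 11 were higher and 7 lower, with a median of 0.76, or 0.34 at the bounds. With a filter at the 70th percentile the more frequent direction and the sign of the median turned. The sign of the median also turned with a floor of 64. Il1rn, the interleukin-1 receptor antagonist, and Il1b were dim and read 20200 and 19760 and 16450 and 15290, at least 268-fold and 213-fold higher. Vegfa fell from 3700 and 2996 to 855 and 890.3 (log2 change -1.93 ± 0.15, adjusted p = 1.54e-05) and Il12a from 1392 and 1465 to 134 and 123 (log2 change -3.48 ± 0.10, adjusted p = 1.02e-07).

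All 14 annexins and S100 proteins tested, out of 16 on the array, were higher, with a median of 2.44, or 2.29 at the bounds. S100a4 read 84.5 and 91.4 and then 8728 and 6312 (log2 change 6.40 ± 0.18, adjusted p = 1.02e-07), and Anxa1, which limits inflammation, 1442 and 1582 and then 16930 and 14570 (log2 change 3.38 ± 0.10, adjusted p = 1.02e-07). Of 15 complement and acute phase genes tested, out of 28 on the array, 10 were higher and 2 lower. Orm1, an acute phase glycoprotein, went from the floor in both vehicle arrays to 3589 and 3333, at least 46.3-fold, and Cfp, properdin, from 692 and 567 to 9415 and 10660 (adjusted p = 2.25e-06), of which 2.39 on the log2 scale came after 24 h. Lcn2, lipocalin 2, read 16 and 33, dim, in vehicle C10 and 83.5 and 78.7 at 48 h, and lay below its 24 h level (log2 change -4.13, adjusted p = 0.000349).

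**Figure D5:**
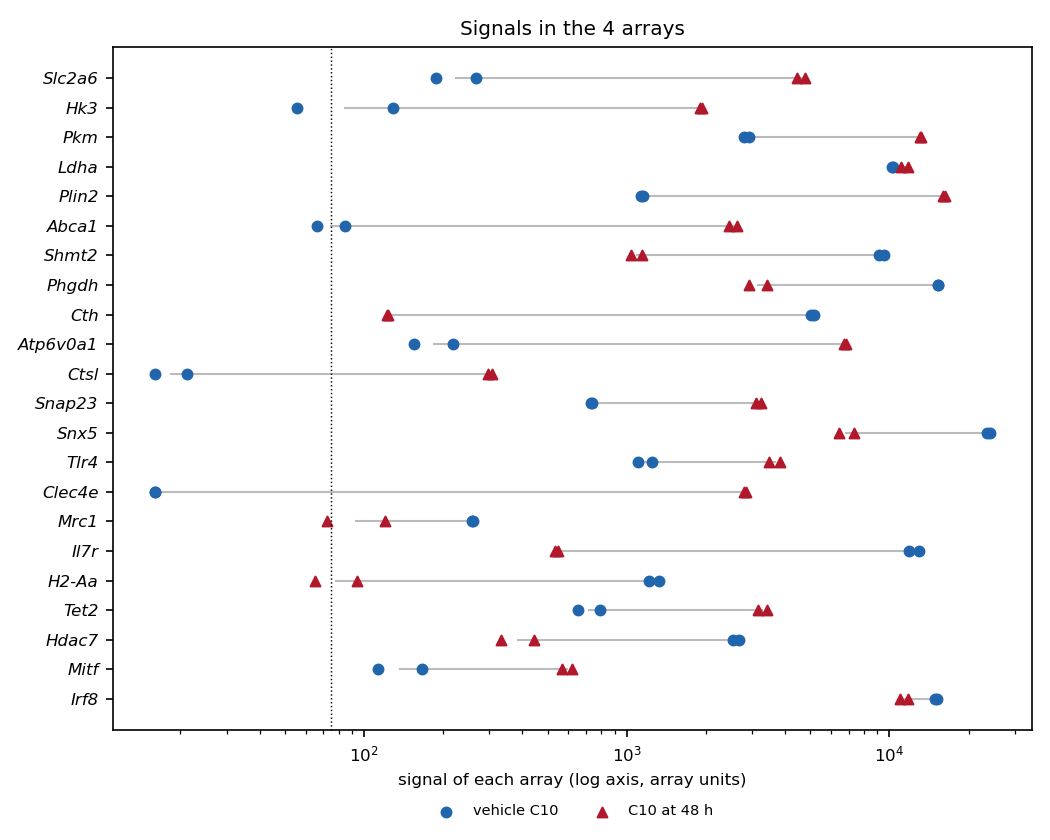
Signal of 22 of the genes described (rows) in each of the 4 arrays, on a logarithmic axis in array units: blue circles are the 2 vehicle C10 arrays, red triangles the 2 arrays at 48 h, the grey line joins their means and the dotted line is the dim level of 74.6. Circles and triangles do not overlap in any row shown, Ldha included, which did not pass the test. The same held for 80.3% of all genes tested.

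Compared with 24 h, 1108 genes were higher at 48 h (9.47% of those tested) and 2095 lower (17.9%), with a median log2 change of -0.07. The same 48 h arrays enter this comparison and the one with vehicle C10. The comparison with 24 h was not repeated under spike-in scaling or without 48 h replicate 2. The interferon list (39 of 53), lysosomal hydrolases (15 of 40) and lysosomal membrane genes (14 of 30) had a larger share higher than at 24 h than the 9.47% of all genes. Oxidative phosphorylation (51 of 70), the citrate cycle (22 of 29) and mitosis (51 of 54) had a larger share lower than the 17.9% of all genes. For oxidative phosphorylation the median against 24 h was -0.39, and that against vehicle C10 was -0.32.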

How the data were processed

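The authors deposited 1 intensity per probe set and array, on a linear scale, for 45101 probe sets of 12 Affymetrix mouse arrays; the trimmed mean of every array was about 500. The software behind these values is not given in the sources used here. RNA was extracted with Trizol and biotin-labelled, per the labels' protocols. A fixed scale keeps no depth, and 2 arrays a group limit the precision.

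The intensities were quantile-normalised, floored at 16 and taken to log2, and 64 control probe sets were left out. Of the probe sets, 34945 had 1 gene symbol, 932 several and 9160 none; those with several or none were not used. The brightest probe set stood for a gene; for 275 genes other probe sets were called in opposite directions. All 12 arrays were fitted with 1 mean per group in limma 3.58.1 (R 4.3.3), with two-sided Benjamini-Hochberg adjusted p-values over 11696 genes. On simulated data with 200 changed genes among 11696, the test recovered 79% of log2 changes of 2 and 54% of log2 changes of 1, and called 0.0435% of unchanged genes. In the data 62.4% of genes were called, a far larger share than was changed there, so these rates need not hold for this comparison.

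Named genes were the 15 largest rises and falls measured in both groups, the 10 largest bounded ones each way, and of each list up to 6 called, 3 called against the list's direction and 2 bright genes that did not pass, plus fixed genes; the text gives a selection of these. Ifit1, Oas3, Cdc20, Cdk1, Ube2c, Hdac4 and Hdac5 fall outside that rule. The members and lists were chosen with earlier results of these data known. Alternatives covered scaling, filter, floor, pseudocount, probe set choice, the fit, the control group and each array left out. They were run for the comparison with vehicle C10 and not for that with 24 h.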

Additional observations from a re-analysis of the deposited data

How the results depend on the processing

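With the poly-A spike-ins as the scale, 1133 genes were lower and 69.3% of calls were higher, and the median of all genes was turned to 0.379; with that scaling and without 48 h replicate 2, an alternative chosen after seeing the data, 1761 genes were higher and 2741 lower. The cause was not tested. Requiring a change above a log2 value of 1 left 923 higher and 1363 lower, by its own construction. Testing every probe set called 6775 higher and 7969 lower, with a median of -0.0571. The median was -0.245 with median centring, -0.0476 with no filter and -0.135 with a floor of 64. Leaving out 1 array at a time gave 2507 to 2609 higher, 3930 to 4222 lower, 37.3% to 39.7% of calls higher and a median of -0.209 to -0.163. Replicate numbers did not pair the arrays (correlation of deviations between vehicle and 48 h -0.00568), and with the replicate block 2805 genes were higher and 4428 lower. The more frequent direction of calls was turned in 9 of 72 lists by spike-in scaling, in 5 by HAFTL as control (dendritic, T and NK, and erythroid markers, fatty acid and sterol synthesis, and MHC class II), in 2 by the mean of probe sets, in 2 by a filter at the 70th percentile and in 1, fatty acid and sterol synthesis, by the minimum change. Against HAFTL, Egr3 (log2 change 0.11), Hvcn1 (0.16), Irf8 (0.67), H2-Eb1 (0.54) and Esr1 (1.78) were turned, and Irf8 (0.38) also under spike-in scaling. Fitted changes of genes with dim arrays moved with 1 array: Acta2 gave 4.70 and 7.35 without vehicle replicate 1 and 2, and Cox6a2 -7.60 and -5.78 without 48 h replicate 1 and 2. Dim genes have no order below a signal of 74.6.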
